A study of Mus musculus with 4 samples.

Results

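The expression of 28 genes of cholesterol synthesis and sterol balance was examined in the subcutaneous adipose tissue of mice that lack Napepld in adipocytes and of their littermates, under a high fat and a control diet. The genes were taken from a list that was chosen with earlier results of these data known. It held 19 enzymes of the synthesis pathway, 4 genes of sterol sensing and 5 genes of sterol transport, esterification and efflux. Of the 28 listed genes, 26 had at least 1 array probe set that names only that gene, among 19938 genes measured in this way, and 18 of the 19 listed synthesis enzymes were among them. Acat2, which joins acetyl units at the start of the pathway, and Soat1, which esterifies cholesterol for storage, were not analysed here.

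NAPE-PLD, the product of Napepld, makes N-acylethanolamines, a class of bioactive lipids. The study asked what loss of this enzyme in fat does to the tissue. All mice were male C57Bl6 animals, 16 weeks old after 8 weeks of diet, and all carried the floxed (lox/lox) Napepld alleles. The 4 groups were cKO-HFD and cKO-CT, which also carried Cre recombinase driven by the Fabp4 (AP2) promoter, and WT-HFD and WT-CT, the littermates without Cre. HFD stands for the high fat diet D12492 and CT for the control diet AIN93M. Fabp4 is an adipocyte gene, so that cells of the tissue in which the promoter is not active keep their Napepld. The paper cites reports of Cre activity from this promoter in other cells such as macrophages. In its own mice, Napepld expression in peritoneal macrophages did not differ between the genotypes. RNA of the mice in a group was pooled (5 mice per group in the methods, 4 to 5 in the sample descriptions) and hybridised to 1 MoGene ST array, which gives 1 value per gene and group. There was therefore no replicate, no spread and no test: each ratio compares one pool with another, and a gene is called higher or lower when 2 pools differ by at least 1.5-fold (0.58 on the log2 scale), the fold at which the study listed its genes.

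Cholesterol is built from acetyl units. The mevalonate branch makes isoprenoids, farnesyl units are joined into squalene, and squalene is closed into lanosterol and trimmed to cholesterol. When sterols in the endoplasmic reticulum are low, SCAP escorts SREBP proteins to the Golgi for cleavage, and the released factor switches on the genes of the pathway; when sterols are high, INSIG proteins hold SCAP back. In adipocytes much of the free cholesterol of the tissue lies at the lipid droplet surface and in the plasma membrane.

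SREBP acts through sterol regulatory elements next to binding sites of NF-Y, and the promoters of 4 of the genes are shown for these letters. They are the promoters of Insig1, Idi1 and Nsdhl, which were among the genes lower in WT-HFD than in WT-CT, and of Hmgcs1, which was not; these 4 were chosen after their values were seen. Each is a RefSeq window (GRCm38.p6) of 300 bases, 250 before and 50 after the transcript start, on the + strand and written 5′ to 3′. Capitals mark the NF-Y box CCAAT and the sterol regulatory element TCACNCCAC or its core CACNCCAC on either strand, so that a match on the other strand reads ATTGG or, in Insig1, GTGGCGTG.
Insig1 (chr5:28071162-28071461): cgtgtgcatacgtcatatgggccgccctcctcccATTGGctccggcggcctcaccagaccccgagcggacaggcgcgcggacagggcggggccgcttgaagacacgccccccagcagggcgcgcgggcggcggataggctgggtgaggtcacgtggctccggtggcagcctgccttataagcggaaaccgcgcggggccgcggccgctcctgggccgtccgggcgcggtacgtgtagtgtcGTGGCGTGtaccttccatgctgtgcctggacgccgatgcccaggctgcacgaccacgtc
Idi1 (chr13:8885356-8885655): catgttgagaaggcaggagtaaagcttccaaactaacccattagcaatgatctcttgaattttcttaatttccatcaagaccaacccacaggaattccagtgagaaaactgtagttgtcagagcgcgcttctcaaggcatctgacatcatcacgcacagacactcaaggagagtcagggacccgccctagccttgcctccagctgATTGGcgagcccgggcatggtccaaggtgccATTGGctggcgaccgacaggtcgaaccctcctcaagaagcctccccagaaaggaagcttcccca
Nsdhl (chrX:72918271-72918570): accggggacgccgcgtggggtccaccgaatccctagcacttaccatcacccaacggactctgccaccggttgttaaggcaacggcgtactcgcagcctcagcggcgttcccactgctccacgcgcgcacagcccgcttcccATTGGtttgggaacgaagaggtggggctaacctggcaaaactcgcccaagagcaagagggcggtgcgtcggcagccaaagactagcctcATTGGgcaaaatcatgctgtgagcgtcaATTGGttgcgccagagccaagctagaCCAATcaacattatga
Hmgcs1 (chr13:119690101-119690400): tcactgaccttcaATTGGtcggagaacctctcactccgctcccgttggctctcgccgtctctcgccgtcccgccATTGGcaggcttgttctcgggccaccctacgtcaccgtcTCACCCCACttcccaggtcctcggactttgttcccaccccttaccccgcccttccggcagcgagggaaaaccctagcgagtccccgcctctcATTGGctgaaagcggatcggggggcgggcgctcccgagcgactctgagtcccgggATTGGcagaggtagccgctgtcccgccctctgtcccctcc

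Hmgcs1 held 4 NF-Y boxes and the whole sterol element, at bases -137 to -129 from the start. Insig1 held 1 NF-Y box and the core element at bases -9 to -2. Nsdhl held 4 NF-Y boxes and Idi1 2, both with no element of these letters in the window. Over the 22 listed genes with a window in the table, 19 had an NF-Y box in at least 1 window, 15 of 16 synthesis enzymes among them, against 41.1% of 27025 genes. Fdft1, Sqle and Fdps had no window and were not searched, although Fdft1 and Sqle were among the genes lower in WT-HFD. Some genes have several windows, and counted by window the share was 67.9% of 28 windows against 37.4% of all windows. The core element was found in 3 of the 22 genes (Acat2, Hmgcs1 and Insig1) and in 7.12% of all genes. The E-box CACGTG was found in 6 of the 22 and in 8.09% of all genes. A match is a description of the letters only, and a site outside these windows or with other letters would be missed.

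**Figure D1:**
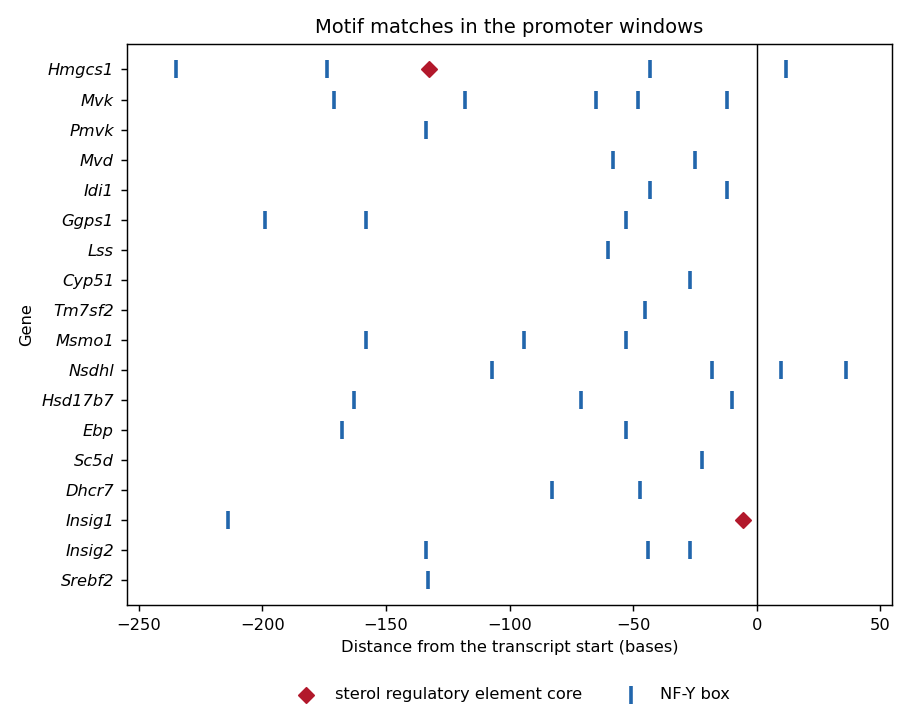
Position of NF-Y boxes (bars) and of the sterol regulatory element core (diamonds) in the promoter windows of the measured genes that hold at least 1 of them, in bases from the transcript start. Hmgcs1 and Insig1 carry a diamond, and the 18 genes drawn all carry at least 1 bar.

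In keeping with the tissue label, all 12 measured adipocyte markers lay above background in all 4 arrays, with background taken as the 95th percentile of the olfactory receptor genes of each array (5.28 to 5.50, log2). The same background was exceeded by 24 of the 26 sterol genes in all 4 arrays, by Cyp51 in 3 arrays and by Stard4 in 2. The pools also differed in other cell types. The mean log2 level of 16 skeletal muscle markers was 7.37 in cKO-HFD, 10.89 in WT-HFD, 9.22 in cKO-CT and 9.42 in WT-CT, with 15 of the 16 above background in cKO-HFD and all 16 in the other pools. No muscle marker was at 0, a value these log2 data do not have. The mean of 19 macrophage markers was 7.45 in cKO-HFD, 7.78 in WT-HFD, 7.48 in cKO-CT and 7.06 in WT-CT. That of 11 pancreatic acinar markers was 5.39 in cKO-HFD, 5.44 in WT-HFD, 5.25 in cKO-CT and 7.10 in WT-CT, with 4, 5, 5 and 11 of the 11 above background, so that WT-CT stood apart. That of 10 brown and beige adipocyte markers was 7.02 in cKO-HFD, 7.11 in WT-HFD, 8.25 in cKO-CT and 8.91 in WT-CT. Napepld itself was 7.94 in cKO-HFD, 8.01 in WT-HFD, 7.78 in cKO-CT and 8.31 in WT-CT, a log2 ratio of cKO over WT of -0.06 under the high fat diet and -0.53 under the control diet. Whether its probe set covers the deleted part is not known here. The paper verified the deletion under both diets by mRNA in the fat depots. It found no detectable NAPE-PLD protein in white fat of cKO mice. It also saw residual Napepld expression in the tissue, and placed the decrease in the adipocyte fraction and not in the stromal vascular fraction.

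The enzymes of the pathway were most often lowest in WT-HFD and highest in WT-CT. Of the 18 synthesis enzymes, 11 were lowest in WT-HFD, a pattern that 23.0% of all genes had, and 11 were highest in WT-CT, against 27.4% of all genes. Sensing and transport genes other than Insig1 and Abcg1 stayed within 1.5-fold in all 4 comparisons.

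**Figure D2:**
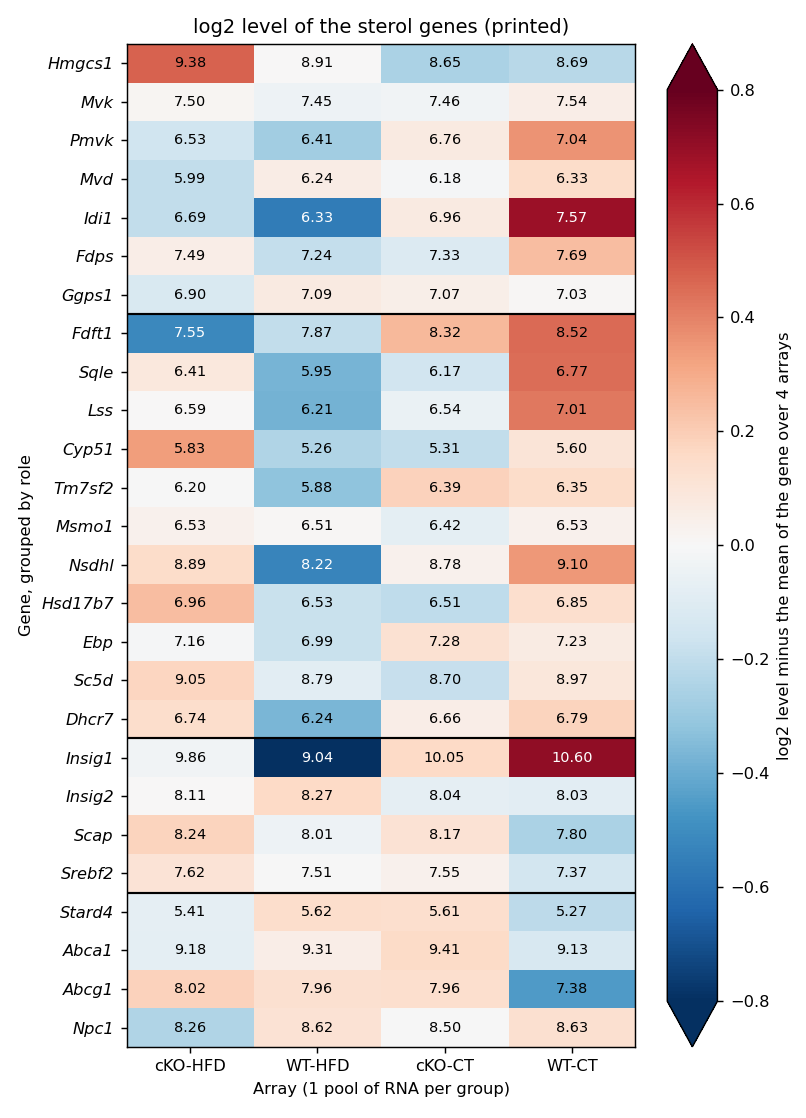
log2 level of the 26 sterol genes (printed) in the 4 arrays, coloured by the distance from each gene's own mean over the arrays; lines part the mevalonate, squalene to cholesterol, sensing and transport genes. The WT-HFD column holds the deepest blue for Insig1 (9.04) and WT-CT the deepest red for Insig1 (10.60) and Idi1 (7.57).

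In WT mice, 7 of the 26 genes were lower in WT-HFD than in WT-CT by at least 1.5-fold and 0 were higher, where 2.67% of all genes were lower and 3.16% higher. Among the 12486 genes above background in at least 1 array, which include all 26, 3.52% were lower and 4.4% higher. The 7 were Insig1 and 6 synthesis enzymes: Idi1, Pmvk, Fdft1, Sqle, Lss and Nsdhl. The median log2 ratio was -0.39 over the 18 synthesis enzymes and -0.21 over the 26 genes, beside -0.004 over all genes. For those whose log2 level averaged 7 or more (8 enzymes, 15 genes) the medians were -0.21 and -0.0099. All 11 enzymes from squalene formation onwards had a ratio below 0, where 50.6% of all genes did, and 10 of the 11 did with the arrays centred on the median level of the adipocyte markers. That scaling also left Pmvk (-0.55) and Fdft1 (-0.57) short of 1.5-fold.

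INSIG1, the endoplasmic reticulum protein that retains SCAP and is itself a target of SREBP, had the widest span of the 26 genes. Its log2 level was 9.86 in cKO-HFD, 9.04 in WT-HFD, 10.05 in cKO-CT and 10.60 in WT-CT. WT-HFD stood apart at the low end and WT-CT at the high end, with a 2.94-fold lower level in WT-HFD than in WT-CT (log2 ratio -1.56). Between cKO-HFD and cKO-CT the ratio was -0.19. Its relative Insig2, which also retains SCAP, was 8.11 in cKO-HFD, 8.27 in WT-HFD, 8.04 in cKO-CT and 8.03 in WT-CT, with its highest level in WT-HFD, where Insig1 was lowest.

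Among the enzymes that build isoprenoids, Idi1, which converts isopentenyl pyrophosphate to dimethylallyl pyrophosphate, differed most. Its log2 level was 6.69 in cKO-HFD, 6.33 in WT-HFD, 6.96 in cKO-CT and 7.57 in WT-CT, and WT-HFD was again the lowest and WT-CT the highest pool. The level in WT-HFD was 2.37-fold lower than in WT-CT. Both of its probe sets gave this, at log2 ratios of -1.27 and -1.22. Pmvk, which adds the second phosphate to mevalonate, was 6.53 in cKO-HFD, 6.41 in WT-HFD, 6.76 in cKO-CT and 7.04 in WT-CT, with both high fat diet pools below both control diet pools. Fdps, which makes farnesyl pyrophosphate, was 7.49 in cKO-HFD, 7.24 in WT-HFD, 7.33 in cKO-CT and 7.69 in WT-CT, and its ratio of -0.44 in WT mice did not reach 1.5-fold.

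The remaining enzymes of this branch were flatter or went another way. Mvk, the mevalonate kinase, stayed between 7.45 and 7.54 over the 4 pools. Mvd, which decarboxylates mevalonate pyrophosphate, and Ggps1, which makes geranylgeranyl pyrophosphate for protein prenylation, had ratios of -0.09 and 0.06 in WT mice. Hmgcs1, the synthase that makes HMG-CoA, was 9.38 in cKO-HFD, 8.91 in WT-HFD, 8.65 in cKO-CT and 8.69 in WT-CT. Its level was higher in both high fat diet pools than in both control diet pools, and it was the gene of the list called higher in cKO-HFD than in cKO-CT, at 1.65-fold.

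Several enzymes from squalene onwards shared the low level in WT-HFD. Sqle, the squalene epoxidase and a rate-limiting enzyme of the pathway, was 6.41 in cKO-HFD, 5.95 in WT-HFD, 6.17 in cKO-CT and 6.77 in WT-CT. Lss, which closes the epoxide into lanosterol, was 6.59 in cKO-HFD, 6.21 in WT-HFD, 6.54 in cKO-CT and 7.01 in WT-CT. Nsdhl, which removes carbon at position C4 of the sterol ring, was 8.89 in cKO-HFD, 8.22 in WT-HFD, 8.78 in cKO-CT and 9.10 in WT-CT. In all of these WT-HFD was the lowest pool and WT-CT the highest, with levels 1.76-fold, 1.74-fold and 1.84-fold lower in WT-HFD than in WT-CT.

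Other late enzymes had smaller ratios below 0 in WT mice and did not reach 1.5-fold. Dhcr7, the reductase of a final step to cholesterol, was 6.74 in cKO-HFD, 6.24 in WT-HFD, 6.66 in cKO-CT and 6.79 in WT-CT, a ratio of -0.55 in WT mice. Tm7sf2, a sterol C14 reductase, had a ratio of -0.47, and Cyp51, the lanosterol demethylase, one of -0.35, with its level in WT-HFD below background. Hsd17b7, Ebp and Sc5d, the C3-ketosteroid reductase, the sterol isomerase and the sterol C5 desaturase, had ratios of -0.32, -0.24 and -0.18. Msmo1, the C4 methyl sterol oxidase that works beside Nsdhl, was 6.53 in cKO-HFD, 6.51 in WT-HFD, 6.42 in cKO-CT and 6.53 in WT-CT and was flat over the pools.

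Fdft1, the squalene synthase at the branch point of the pathway, was the enzyme called lower under the high fat diet in both genotypes. Its log2 level was 7.55 in cKO-HFD, 7.87 in WT-HFD, 8.32 in cKO-CT and 8.52 in WT-CT. Both high fat diet pools lay below both control diet pools, an order that Idi1, Pmvk, Tm7sf2, Ebp and Insig1 also had. The high fat diet pool was lower by 1.71-fold in cKO and by 1.57-fold in WT mice. It was the gene called lower in cKO-HFD than in cKO-CT. Its 2 probe sets gave log2 ratios of -0.99 and -0.55 for cKO-HFD over cKO-CT, and only the first passes 1.5-fold.

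**Figure D3:**
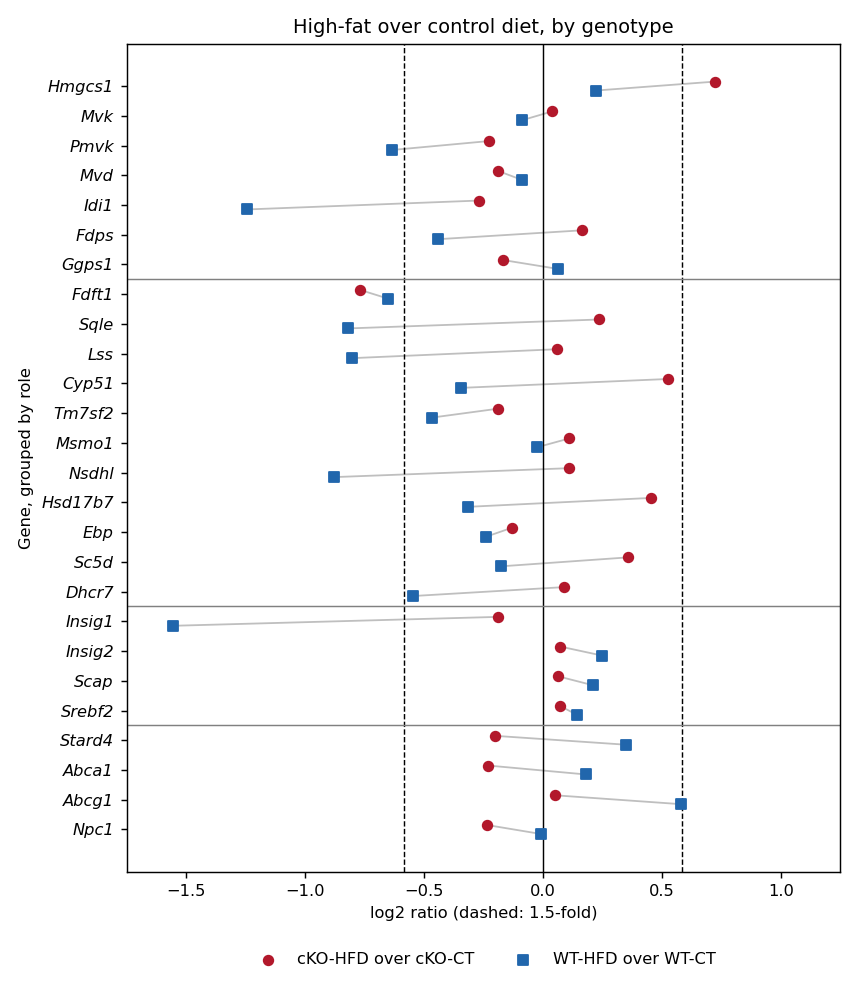
log2 ratio of the high fat over the control diet for each gene in cKO mice (circles) and in WT mice (squares), with dashed lines at 1.5-fold. The squares of Insig1 (-1.56) and Idi1 (-1.25) lie furthest left, while the circles stay within the dashed lines except for Hmgcs1 (0.72) and Fdft1 (-0.77).

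In cKO mice 1 of the 26 genes was lower and 1 higher in cKO-HFD than in cKO-CT, where 2.17% of all genes were lower and 1.82% higher, and 3.16% and 1.33% of the genes above background. The median was 0.07 over the synthesis enzymes and 0.05 over the 26 genes, beside 0.02 over all genes. Of the 11 enzymes from squalene formation onwards, 8 had a ratio above 0, where 52.9% of all genes did. Of the 6 enzymes lower in WT-HFD, Fdft1 was the one also lower in cKO-HFD; Sqle, Lss and Nsdhl had ratios of 0.24, 0.06 and 0.11 in cKO mice, and Idi1 and Pmvk ratios of -0.27 and -0.23. The largest positive ratios after Hmgcs1 were those of Cyp51 (0.53) and Hsd17b7 (0.45).

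The 2 diet comparisons share no array, but each rests on 1 pool per diet, and WT-HFD, in which most synthesis enzymes were lowest, was also the pool with the most skeletal muscle and macrophage signal, while WT-CT, in which they were most often highest, had the most acinar and brown or beige signal. Between cKO-HFD and cKO-CT the median log2 ratio was -1.93 for the muscle, -0.10 for the macrophage, 0.13 for the acinar, -0.90 for the brown and beige and -0.015 for the adipocyte markers. Between WT-HFD and WT-CT it was 1.74 for the muscle, 0.72 for the macrophage, -1.70 for the acinar (10 of 11 lower by at least 1.5-fold), -1.32 for the brown and beige (7 of 10 lower) and -0.06 for the adipocyte markers. The part of these cell types in the sterol ratios was not tested, and in pooled tissue RNA fewer cells of a type and less RNA per cell cannot be told apart.

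Under the control diet the cKO pool had somewhat lower enzymes than the WT pool. In cKO-CT 2 of the 26 genes, Idi1 and Sqle, were lower than in WT-CT by at least 1.5-fold, where 1.52% of all genes and 1.29% of those above background were lower. In the other direction 1 gene, Abcg1, was higher, where 1.64% of all genes and 2.4% of those above background were. All 3 lay close to the threshold, at -0.61, -0.60 and 0.59, and Insig1 lay just short of it at -0.55. Sqle fell short when the arrays were centred on the median of all genes (-0.57), Abcg1 under cyclic loess (0.50), and both adipocyte marker scalings also brought Abcg1 under the threshold and took Insig1 and Lss past it. Of the 18 synthesis enzymes, 15 had a ratio below 0, as did 50.7% of all genes. The count was 15 with the arrays centred on the median of all genes and 17 under cyclic loess. It was 18 under both adipocyte marker scalings, but these moved the median of all genes to -0.13 and -0.14. Without such scaling, the median over the enzymes was -0.24. In the same comparison 10 of 11 acinar markers were lower (median -1.84), 6 of 10 brown and beige markers were lower (median -0.69) and 6 of 19 macrophage markers were higher (median 0.45). Their part in the enzyme ratios was not tested.

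Under the high fat diet most enzyme ratios of cKO over WT were above 0. In cKO-HFD 2 of the 26 genes, Insig1 and Nsdhl, were higher than in WT-HFD, at 1.76-fold and 1.59-fold, and 0 were lower, where 1.04% of all genes were higher and 2.11% lower, and 0.937% and 3.0% of the genes above background. Nsdhl fell short under both adipocyte marker scalings, at 0.44 and 0.58. Cyp51 (0.58) lay just under the threshold, followed by Dhcr7 (0.51), Hmgcs1 (0.47) and Sqle (0.46). The median was 0.29 over the synthesis enzymes, and 10 of the 11 enzymes from squalene onwards had a ratio above 0, as did 55.5% of all genes, with 8 to 10 of the 11 over the other scalings. Fdft1 was the exception, at -0.32. With the arrays centred on the median level of the adipocyte markers, the median of the enzymes was 0.058. Over the 26 genes the median was 0.19, but it was -0.04, beside -0.20 over all genes, when each array was first centred on the median level of the adipocyte markers, and 0.10, beside -0.07, when it was centred on their mean.

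Set against each other, the genotype ratio was below 0 under the control diet and above 0 under the high fat diet in 13 of the 18 synthesis enzymes, a pattern of 29.2% of all genes, and the reverse pattern was found in 1 of the 18 and in 22.9% of all genes. Over the other scalings the pattern was found in 11 to 14 of the 18. The difference of the log2 ratios, high fat diet minus control diet, was above 0 by at least 1.5-fold in 9 of the 26 genes and below 0 by as much in 0, where 5.56% of all genes passed above and 5.12% below. Over the other scalings 7 to 10 genes passed above, and 1 passed below under cyclic loess and 2 with the median of the adipocyte markers. The 9 were Insig1 (1.37), Sqle (1.05), Nsdhl (0.99), Idi1 (0.98), Cyp51 (0.87), Lss (0.86), Hsd17b7 (0.77), Dhcr7 (0.64) and Fdps (0.61). The median difference was 0.52 over the synthesis enzymes, beside 0.02 over all genes, and it was above 0 in 15 of the 18, against 52.9% of all genes. The pattern was not particular to these enzymes. Of 15 fatty acid synthesis genes, 9 passed above 0 by at least 1.5-fold and 0 below, with a median difference of 0.76. The difference uses all 4 arrays and is also the difference of both diet ratios, so that it adds no measurement to those above. The median log2 ratio of the muscle markers, cKO over WT, was -3.95 under the high fat diet and -0.095 under the control diet. The difference of the ratios had a median of 1.83 for the acinar markers, with 10 of 11 above 0 by at least 1.5-fold, and of 0.42 for the brown and beige markers, with 4 of 10. It had a median of -0.78 for the macrophage markers. The part of these cell types in the genotype ratios was not tested.

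**Figure D4:**
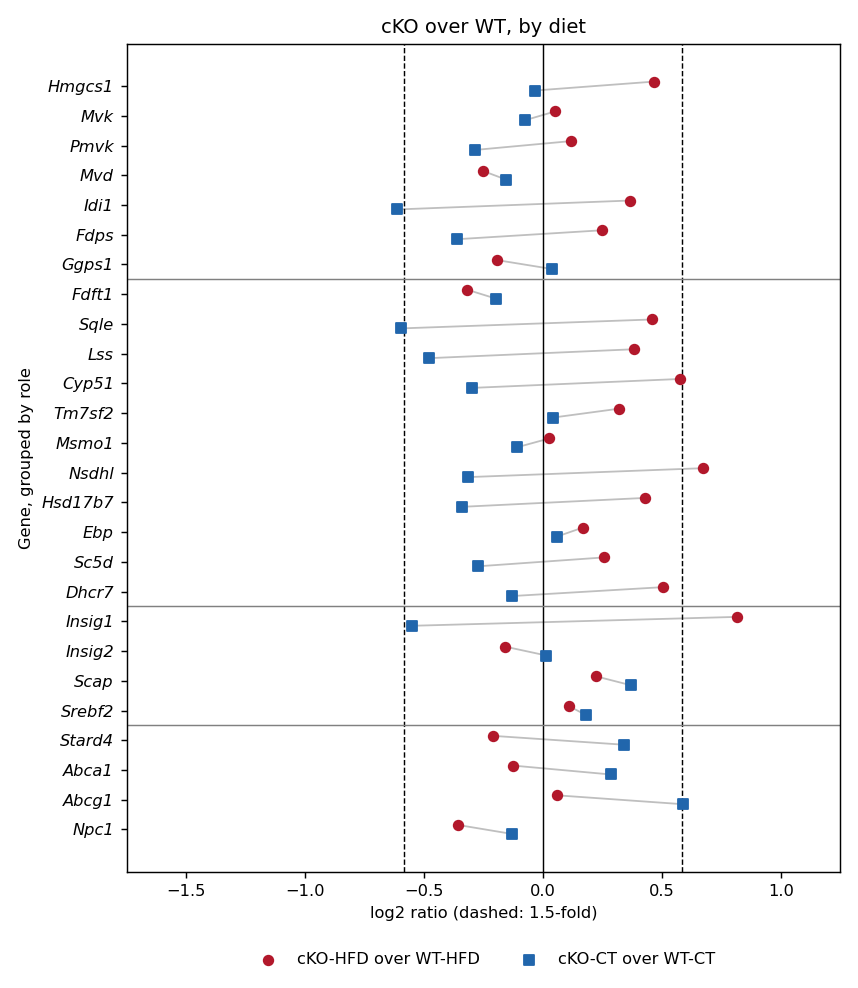
log2 ratio of cKO over WT for each gene under the high fat diet (circles) and under the control diet (squares), with dashed lines at 1.5-fold. For Insig1 the circle lies at 0.82 and the square at -0.55, and most synthesis enzymes have the circle right of 0 and the square left of it.

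The genes that sense sterols and start the SREBP response, apart from Insig1, varied by less than 1.5-fold. Scap, which carries SREBP to the Golgi, was 8.24 in cKO-HFD, 8.01 in WT-HFD, 8.17 in cKO-CT and 7.80 in WT-CT, and Srebf2, which encodes the SREBP form that mainly drives cholesterol genes, was 7.62 in cKO-HFD, 7.51 in WT-HFD, 7.55 in cKO-CT and 7.37 in WT-CT. Both were lowest in WT-CT, the pool in which most enzymes were highest, and neither reached 1.5-fold in any of the 4 comparisons. The largest of their log2 ratios was 0.37, for Scap in cKO-CT over WT-CT. These are transcript levels and say nothing of the cleaved protein.

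The genes that move sterol out of or within cells had another order. Abcg1, which exports cholesterol to HDL, was 8.02 in cKO-HFD, 7.96 in WT-HFD, 7.96 in cKO-CT and 7.38 in WT-CT, with WT-CT apart at the low end and the other pools within 0.06 of each other. Against WT-CT, its log2 ratio was 0.59 in cKO-CT and 0.58 in WT-HFD, on either side of the threshold. Abca1, which loads cholesterol onto apolipoprotein A-I, was also lowest in WT-CT, at 9.18 in cKO-HFD, 9.31 in WT-HFD, 9.41 in cKO-CT and 9.13 in WT-CT. Npc1, which releases cholesterol from the lysosome, was 8.26 in cKO-HFD, 8.62 in WT-HFD, 8.50 in cKO-CT and 8.63 in WT-CT, lowest in cKO-HFD. Stard4, a cytosolic sterol carrier and a target of SREBP, was 5.41 in cKO-HFD, 5.62 in WT-HFD, 5.61 in cKO-CT and 5.27 in WT-CT, close to background in all pools. The 4 transport genes had a median log2 ratio of -0.22 in cKO-HFD over cKO-CT and 0.27 in WT-HFD over WT-CT.

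A second list held other genes of sterol handling, from lipoprotein receptors and nuclear receptors to apolipoproteins and oxysterol enzymes, of which 43 were measured. In cKO-HFD 2 were lower and 1 higher than in cKO-CT, in WT-HFD 4 were lower and 2 higher than in WT-CT, in cKO-CT 0 were lower and 1 higher than in WT-CT, and in cKO-HFD 1 was lower and 0 higher than in WT-HFD. Of all genes, 2.17% were lower and 1.82% higher in the first of these, 2.67% and 3.16% in the second, 1.52% and 1.64% in the third and 2.11% and 1.04% in the last. Their medians were -0.015, 0.11, 0.12 and 0.04 in the same order. Pltp, the phospholipid transfer protein that remodels HDL and is a target of liver X receptors, went furthest: 11.74 in cKO-HFD, 11.26 in WT-HFD, 10.98 in cKO-CT and 9.96 in WT-CT. WT-CT was its lowest pool, and its ratios were 0.76 for cKO-HFD over cKO-CT, 1.30 for WT-HFD over WT-CT and 1.02 for cKO-CT over WT-CT. Nceh1, a cholesterol ester hydrolase, was higher in WT-HFD than in WT-CT (0.93), while Scp2, a peroxisomal sterol carrier (-0.80), Pgrmc1, a partner of sterol cytochromes (-0.64), Apoc1, an apolipoprotein (-0.59), and Srebf1 (-0.59), whose SREBP products mainly drive fatty acid genes, were lower. Srebf1 was also lower in cKO-HFD than in cKO-CT (-0.67), and Cyp27a1, which makes 27-hydroxycholesterol, was lower in cKO-HFD than in cKO-CT (-0.69) and than in WT-HFD (-0.72).

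The fatty acid synthesis genes, which SREBP also drives, were set beside the cholesterol enzymes. Of 15 measured, 9 were lower in cKO-HFD than in cKO-CT (median -0.86) and 12 in WT-HFD than in WT-CT (median -1.80). Of the 18 cholesterol enzymes, 1 was lower in cKO-HFD (median 0.07) and 6 in WT-HFD (median -0.39). Of all genes, 2.17% were lower in cKO-HFD and 2.67% in WT-HFD. Fdft1 was the cholesterol enzyme called lower under the high fat diet in both genotypes. By genotype, 5 of the 15 fatty acid genes were lower in cKO-CT than in WT-CT and 0 higher. Between cKO-HFD and WT-HFD, 4 were higher in cKO-HFD and 0 lower. Of all genes, 1.52% were lower in cKO-CT and 1.04% higher in cKO-HFD. The difference between the lists was not tested.

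**Figure D5:**
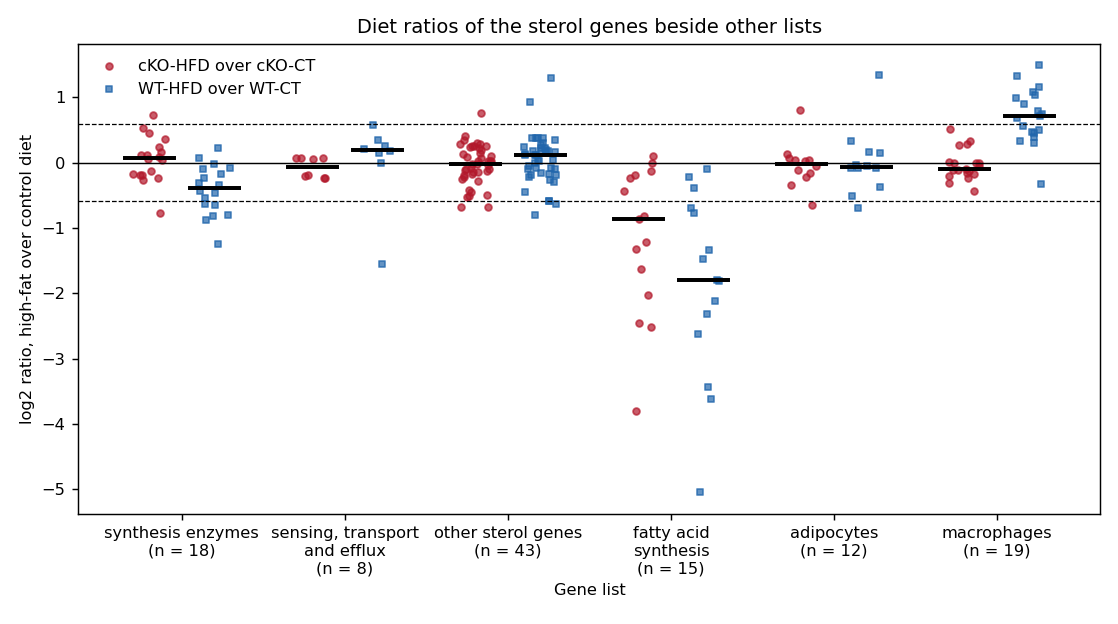
log2 ratio of the high fat over the control diet for the genes of 6 lists in cKO mice (circles) and WT mice (squares), with black bars at the list medians and dashed lines at 1.5-fold. The synthesis enzymes have medians of 0.07 in cKO and -0.39 in WT mice, and the fatty acid genes -0.86 and -1.80.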

How the data were processed

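Gene expression was measured on 4 Affymetrix MoGene ST arrays, 1 per group, each of RNA pooled within the group. The authors normalised the arrays with RMA and deposited log2 values for 35556 probe sets. The genome build is not given in the sources used here. Their detection p values were not used here, and a background was set at the 95th percentile of 1027 olfactory receptor genes. Array intensity has no read depth, and the number of arrays limits the precision.

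From the deposited log2 values, 21789 probe sets with 1 gene symbol in the platform annotation were averaged to 19938 genes, and 1621 probe sets with several symbols and 12146 with none were left out. Differences of log2 values between arrays were taken for 4 comparisons and called at 1.5-fold, the fold at which the study listed its genes. No test was run, since each group has 1 array. Genes named are all 26 measured members and, from the list of other sterol genes, those past 1.5-fold. The members and lists were chosen with earlier results of these data known. Comparisons share arrays and are not independent of each other.

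Alternatives were a 2-fold threshold, a level filter, the Olfr filter, another rule for probe sets, median centring, cyclic loess (limma 3.58.1 in R 4.3.3, span 0.7, 3 iterations) and centring on adipocyte markers. The counting code was tested on simulated data. Promoter windows came from RefSeq (GRCm38.p6), and motifs were searched on both strands (Python 3.11.15, pandas 2.3.3).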

Additional observations from a re-analysis of the deposited data

Results flagged for a closer look

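For 9 of the 26 genes the log2 ratios of cKO over WT differed by at least 1.5-fold between the diets. In all of them the ratio was above 0 under the high fat diet and below 0 under the control diet. Of all genes, 29.2% had these signs and 5.56% passed a difference of 1.5-fold above 0. Each ratio rests on 1 pool per group, and the difference was not tested. Insig1 had the largest difference, 1.37, with ratios of 0.82 under the high fat diet and -0.55 under the control diet. The differences were 1.05 for Sqle, 0.99 for Nsdhl and 0.98 for Idi1, then 0.87 for Cyp51, 0.86 for Lss and 0.77 for Hsd17b7. They were 0.64 for Dhcr7 and 0.61 for Fdps. The level of Cyp51 in WT-HFD lay below background. Of the 9 genes, 8 encode enzymes of the synthesis pathway. The same difference was passed above 0 by 9 of 15 fatty acid synthesis genes, 10 of 11 acinar and 4 of 10 brown and beige markers. It was passed below 0 by 16 of 16 muscle, 11 of 19 macrophage and 1 of 10 brown and beige markers. Of 10 keratinocyte and sebaceous gland markers, 3 passed above 0 and 0 below. Of 11 liver markers, 1 passed above and 3 below. Of 5 B cell markers, 1 passed above and 0 below, and of 12 adipocyte markers 0 passed either way. Most keratinocyte, liver and B cell markers lay below background in each array. The part of these cell types was not tested.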

How the results depend on the processing

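No ratio called at 1.5-fold turned its sign under any alternative run. Of the uncalled ratios of at least 0.1, those of Pmvk, Ebp, Scap and Srebf2 in cKO-HFD over WT-HFD turned below 0 with the median of the adipocyte markers. No paired analysis was possible because each group has 1 array and the labels give no replicate numbers. With 1 pool per group no setting can show the spread between mice, and many ratios lie close to the 1.5-fold threshold.

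With genes of a mean log2 level of at least 7, 15 sterol genes remained, 8 of them synthesis enzymes. The counts lower in WT-HFD were then 3 genes and 2 enzymes, with medians of -0.0099 and -0.21. Those lower in cKO-CT were 0 and 0. The median difference of the genotype ratios over the 15 genes was -0.071, below 0. The filter left out Sqle, Idi1, Lss, Cyp51, Hsd17b7 and Dhcr7, whose differences were above 0 by at least 1.5-fold. Left out as well were Mvd and Stard4, whose differences were below 0. At 2-fold, 2 genes and 1 enzyme were lower in WT-HFD than in WT-CT, and the counts of the other 3 comparisons were all 0 in both directions. With median centring 1 gene, an enzyme, was lower in cKO-CT than in WT-CT, and with cyclic loess 0 genes were higher.

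Centring on the adipocyte markers was chosen after seeing the data. With their median level, 1 gene was higher in WT-HFD than in WT-CT, 4 were lower and 0 higher in cKO-CT than in WT-CT (medians -0.26 for the genes and -0.36 for the enzymes), 1 was lower and 1 higher in cKO-HFD than in WT-HFD (medians -0.035 and 0.058), and the median difference was 0.10. This scaling moved the median of all genes to -0.20 in the last comparison and to -0.13 in cKO-CT over WT-CT. With their mean level, 4 genes were lower and 0 higher in cKO-CT than in WT-CT (medians -0.27 and -0.37), and 1 was higher in cKO-HFD than in WT-HFD. The cause was not tested. The other 146 summary values moved by at most 1.5 times for a count and 0.1 for a median.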
